A study of Mus musculus with 6 samples.

Results

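A set of 10 marker genes of muscle macrophages and of complement C1q were followed in 6 RNA sequencing libraries of mouse gastrocnemius, the large calf muscle. They were chosen by gene name, and all 10 were found among the 57010 genes of the expression table. Cd68, Csf1r and Adgre1 mark macrophages in general. C1qa, C1qb and C1qc encode the chains of C1q. Mrc1 and Lyve1 stood for macrophages resident in the tissue, and Lyz2 and Ccr2 for monocytes and other myeloid cells that enter it from the blood.

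The muscles came from NSG mice (NOD/SCID/IL2Rγ-null), which lack mature lymphocytes. Every mouse of both groups carried a subcutaneous tumour on the left flank, grown from MDA-MB-231 cells, a human triple-negative breast cancer line, with knockdown of Rab27a, a small GTPase of vesicle secretion. Tumours of the radiotherapy group (n = 3) were irradiated locally with 10 Gy in 1 dose, 3 days before the gastrocnemius of the other leg was taken; those of the control group (n = 3) were left untreated. Sex and age of the mice and separate animals for the 3 samples of a group are not stated in the labels, so p-values measure only the spread between these samples. No sample came from a tumour without the knockdown or from a tumour-free mouse, and the NOD background is known for macrophages of altered function.

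Macrophages lie between the fibres of healthy muscle, around vessels and in the connective tissue, and depend on the growth factors CSF1 and IL-34, which signal through the receptor encoded by Csf1r. Resident cells take up debris and hyaluronan and are recognised by the mannose receptor (Mrc1) and, near vessels, by the hyaluronan receptor (Lyve1). Blood monocytes leave the bone marrow and enter inflamed tissue through the chemokine receptor CCR2. Tissue macrophages are the main source of C1q, which binds immune complexes and dying cells and starts the classical complement pathway through the proteases C1r and C1s.

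Expression was given in TPM, a share of all transcripts corrected for gene length. The same total in every library leaves the sequencing depth unknown, so the precision of low values cannot be stated. In bulk muscle, fewer macrophages and less RNA per macrophage cannot be told apart. The tissue label was matched by 5 skeletal muscle fibre genes (Tnnt3, Mylpf, Acta1, Ckm, Myh4), which summed to 101588 to 107325 TPM in control and 47482 to 84502 TPM after radiotherapy. All 5 had negative log2 fold changes (median −0.65, and −0.70 without control 1), as did 67.9% of all tested genes. That share depends on the scaling, as given below. For 4 fibre genes the unadjusted limma p was under 0.05, where 2.86% of tested genes were lower. None of the fibre genes passed limma after adjustment (lowest adjusted p = 0.977). Because TPM is relative, a lower share of such abundant transcripts moves the share of every other gene. Values without the 50 most abundant and mitochondrial genes are given below, but what part such a shift had in the members was not tested. The lymphocyte markers Cd3e, Cd8a, Ncr1 and Nkg7 were at 0 in every library. The libraries of control 1 and radiotherapy 3 stood apart in myeloid genes, as described below, and the difference between groups is therefore also given without control 1 for each member and each list whose fold changes are given.

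The C1q chain genes are neighbours in the RefSeq annotation, in the order C1qb, C1qc, C1qa, and had near-parallel values from library to library. The 250 bases before an annotated start were available from RefSeq (GRCm38.p6) for 6 of the 10 members and are shown for C1qb and C1qc and, for comparison, for Mrc1 and Lyz2, a resident and an infiltrating marker. Capitals mark GAGGAA or its reverse complement TTCCTC, a form of the core bound by ETS factors. Other forms were not searched. PU.1, the master regulator of the myeloid lineage, is such a factor. All windows are written 5′ to 3′ on the strand of the gene.
C1qb, chr4:136886201-136886450, minus strand: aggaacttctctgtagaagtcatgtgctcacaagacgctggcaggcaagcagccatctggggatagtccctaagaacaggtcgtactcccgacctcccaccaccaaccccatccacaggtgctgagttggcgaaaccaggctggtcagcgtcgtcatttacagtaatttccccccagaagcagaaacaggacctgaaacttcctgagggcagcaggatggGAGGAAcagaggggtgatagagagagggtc
C1qc, chr4:136892915-136893164, minus strand: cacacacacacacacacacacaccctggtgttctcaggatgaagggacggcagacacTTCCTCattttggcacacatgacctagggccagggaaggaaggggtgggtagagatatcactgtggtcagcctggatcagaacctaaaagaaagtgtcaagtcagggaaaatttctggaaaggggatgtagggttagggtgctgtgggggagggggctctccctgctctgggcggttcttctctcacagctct
Mrc1, chr2:14229164-14229413, plus strand: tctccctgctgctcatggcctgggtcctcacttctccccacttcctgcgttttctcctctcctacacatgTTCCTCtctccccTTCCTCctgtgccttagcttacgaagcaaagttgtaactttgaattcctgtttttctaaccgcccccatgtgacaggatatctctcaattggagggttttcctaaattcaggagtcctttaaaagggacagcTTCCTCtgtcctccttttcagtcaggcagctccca
Lyz2, chr10:117282273-117282522, minus strand: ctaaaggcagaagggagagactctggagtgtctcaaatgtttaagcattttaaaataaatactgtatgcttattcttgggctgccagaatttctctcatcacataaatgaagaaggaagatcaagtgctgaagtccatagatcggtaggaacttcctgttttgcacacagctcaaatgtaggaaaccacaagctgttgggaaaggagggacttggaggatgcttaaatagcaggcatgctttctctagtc

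C1qb held 1 match, beginning 30 bases before the start. C1qc held 1 match on the opposite strand, beginning 193 bases before the end of its window. Unlike that of C1qb, the C1qc window does not end at the RefSeq start of the gene. Mrc1 held 3 matches, at 180, 167 and 35 bases before the start. Lyz2 held none of this form, and other forms of the core were not searched there. The letters occurred in 4 of the 6 member windows, those of C1qb, C1qc, Mrc1 and Cd68, and in 23.3% of the 32851 windows of the same length in the RefSeq table. The match is a description of the letters and shows no binding. Spi1, the gene of PU.1 itself, had 14.0, 1.35 and 0.72 TPM in controls 1, 2 and 3 and 1.02, 0.89 and 4.37 TPM in radiotherapy 1, 2 and 3.

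The comparison of radiotherapy with control asked whether macrophage transcripts of a distant, unirradiated muscle differed after the tumour was irradiated. No member differed beyond the spread between libraries: 0 of 8 tested passed at an adjusted p of 0.05, as did 0% of all tested genes, and none had an unadjusted p under 0.05, where 0.967% of tested genes were higher and 2.86% lower. That background depends on the scaling: after median-of-ratios scaling 2.82% were higher and 2.39% lower, and after quantile normalization 2.74% and 2.49%. For all 10 the values of the groups overlapped; among all tested genes, 9.24% had groups that did not overlap. The variation lay within the groups. Control 1 and radiotherapy 3 were the 2 highest libraries for all 10 members, including each of the 8 that were expressed highly enough to be tested. The same held for 17.0% of the 11375 tested genes, a share that does not cover the 2 untested members. Of the 8, Csf1r and Mrc1 reached 1 TPM in only 3 libraries, control 1 and radiotherapy 3 among them. The filter thus favoured that ranking for both, and the count is a description only. Control 1 was the highest for 9 members, the untested Adgre1 and Ccr2 among them, against 17.3% of tested genes. Lyve1, highest in radiotherapy 3, was the exception. The other 4 libraries, 2 from each group, lay close together at low levels.

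**Figure D1:**
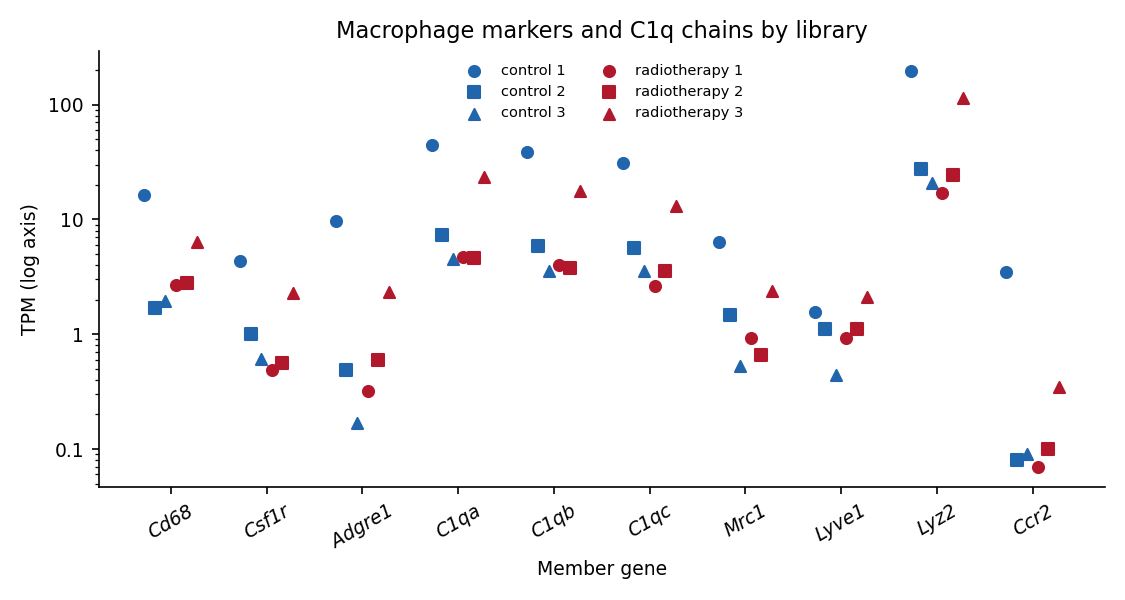
TPM (log axis) of the 10 members in each library, with blue symbols for control and red symbols for radiotherapy, and the circle, square and triangle for replicates 1, 2 and 3. Control 1 (blue circle) and radiotherapy 3 (red triangle) sit above the other 4 libraries for every member, as for Lyz2 at 198 and 115 TPM and for Ccr2 at 3.48 and 0.35 TPM.

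Among the general macrophage markers, Cd68 encodes a lysosomal glycoprotein of phagocytes. Its level was 16.2, 1.69 and 1.96 TPM in controls 1, 2 and 3 and 2.67, 2.80 and 6.39 TPM in radiotherapy 1, 2 and 3. The lowest radiotherapy value was above controls 2 and 3, and control 1 was above every radiotherapy library. Over the groups Cd68 went from 6.62 ± 8.31 TPM (SD, n = 3) to 3.95 ± 2.11 TPM (SD, n = 3), and limma, a linear model fitted over all tested genes on log2(TPM + 1), gave a log2 fold change (radiotherapy minus control) of −0.14 (SE 0.65, adjusted p = 0.991). Without control 1 the Cd68 difference was 0.73, of the opposite sign (limma adjusted p = 0.943), and without both control 1 and radiotherapy 3 it was 0.40 (limma adjusted p = 0.472).

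Csf1r, the receptor on which macrophage survival depends, was at 4.38, 1.00 and 0.61 TPM in the controls and 0.49, 0.56 and 2.27 TPM in the radiotherapy libraries. Radiotherapy 1 and 2 lay below all 3 controls, and radiotherapy 3 lay above controls 2 and 3. The log2 fold change was −0.40 (SE 0.47, limma adjusted p = 0.979), and 0.13 without control 1.

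Adgre1 encodes the surface protein by which mouse macrophages are commonly sorted. It had 9.76, 0.49 and 0.17 TPM in the controls and 0.32, 0.60 and 2.31 TPM in the radiotherapy libraries. Only 2 libraries reached 1 TPM, fewer than the 3 required for testing, so Adgre1 was among the 2 members left out of the main fit. In the fit without that filter its log2 fold change was −0.47 (95% interval −2.65 to 1.70, limma adjusted p = 0.920), and it was 0.53 without control 1.

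The 3 chains of C1q were the most abundant members after Lyz2. C1qa was at 44.3, 7.33 and 4.49 TPM in controls 1, 2 and 3 and 4.72, 4.60 and 23.5 TPM in radiotherapy 1, 2 and 3. C1qb was at 38.5, 5.88 and 3.53 TPM and 4.04, 3.80 and 17.6 TPM in the same order. C1qc was at 30.9, 5.68 and 3.55 TPM and 2.63, 3.54 and 13.02 TPM. In each chain control 1 was highest, radiotherapy 3 second and control 2 next, and the remaining 3 libraries were within 1 TPM of each other for C1qa, C1qb and C1qc. The order of levels C1qa, C1qb, C1qc held in 5 of the 6 libraries, with C1qc above C1qb by 0.02 TPM in control 3.

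The C1q chains kept nearly fixed proportions while their level changed. From its lowest to its highest library C1qa spanned a 9.86-fold range, whereas the ratio of C1qb to C1qa stayed between 0.749 and 0.869. The ratio of C1qc to C1qa ranged from 0.553 to 0.791; it was 0.557 and 0.553 in radiotherapy 1 and 3 but 0.770 in radiotherapy 2, inside the control range of 0.697 to 0.791. Log2 fold changes were −0.47 for C1qa (95% interval −2.28 to 1.35), −0.48 for C1qb (−2.28 to 1.31) and −0.69 for C1qc (−2.33 to 0.96), with limma adjusted p of 0.980, 0.980 and 0.977. Their mean was −0.55, against a median of −0.11 over all tested genes. After median-of-ratios scaling the mean was −0.43 and the median of all genes 0.00, and after quantile normalization they were −0.46 and −0.01. With the 50 most abundant and mitochondrial genes removed, they were −0.47 and −0.01. Without control 1 the mean of the chains was 0.35, and without both control 1 and radiotherapy 3 it was −0.29.

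**Figure D2:**
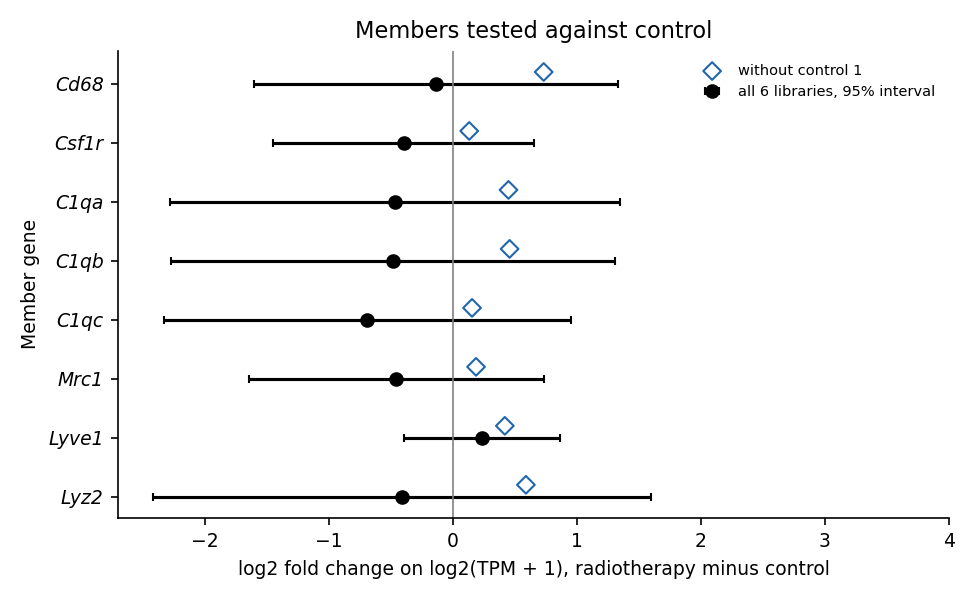
Log2 fold change, radiotherapy minus control on log2(TPM + 1), of the 8 tested members from all 6 libraries (black points, bars for the 95% interval of limma) and the difference of means without control 1 (open diamonds). All 8 intervals include 0, and the 7 members with a negative value from all libraries have a positive one without control 1.

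Among the markers of resident macrophages, Mrc1 (the mannose receptor CD206) was at 6.41, 1.47 and 0.53 TPM in the controls and 0.92, 0.66 and 2.40 TPM in the radiotherapy libraries. Control 3 held the lowest value and control 1 the highest, so that the controls enclosed the radiotherapy group. The log2 fold change was −0.46 (SE 0.53, limma adjusted p = 0.979), and 0.19 without control 1.

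Lyve1, a hyaluronan receptor that lymphatic endothelium carries as well, varied least among the members. It was at 1.55, 1.11 and 0.44 TPM in the controls and 0.92, 1.12 and 2.11 TPM in the radiotherapy libraries, a 4.80-fold range, and it was highest in radiotherapy 3. With 0.24 (SE 0.28, 95% interval −0.39 to 0.86, limma adjusted p = 0.979) it was the single tested member with a positive log2 fold change; 7 were negative, where 67.9% of all tested genes were in TPM, 49.1% after median-of-ratios scaling and 52.3% after quantile normalization. Without control 1 the Lyve1 difference was 0.42. Of the 6 markers of lymphatic endothelium, Prox1 was between 0.12 and 0.20 TPM. The summed level was 6.73 to 18.2 TPM in control and 16.9 to 33.2 TPM after radiotherapy, highest in radiotherapy 2. Most of that sum was Ccl21a, at 4.30 to 14.5 TPM in control and 13.2 to 29.7 TPM after radiotherapy. The other markers differed in their highest library. Flt4 and Reln were highest in radiotherapy 3 (1.65 and 1.42 TPM), Pdpn in control 1 (2.14 TPM) and Mmrn1 in radiotherapy 2 (0.58 TPM). How much of Lyve1 came from those vessels was not tested.

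Among the markers of infiltrating cells, Lyz2 (lysozyme M, an enzyme of macrophages, monocytes and neutrophils) was the most abundant member. It was at 198, 27.8 and 20.7 TPM in controls 1, 2 and 3 and 17.0, 24.5 and 115 TPM in radiotherapy 1, 2 and 3. Radiotherapy 3 was far above controls 2 and 3, and those controls intermingled with radiotherapy 1 and 2. The log2 fold change was −0.41 (95% interval −2.42 to 1.60, limma adjusted p = 0.984), and 0.59 without control 1. Its neighbour and near-identical copy Lyz1 was at 0.61 to 4.53 TPM and followed at 0.0229 to 0.0506 of the Lyz2 value, so the division of reads between both genes is uncertain.

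Ccr2, the receptor that guides monocytes into tissue, was at 3.48, 0.08 and 0.09 TPM in controls 1, 2 and 3 and 0.07, 0.10 and 0.35 TPM in radiotherapy 1, 2 and 3. Only control 1 exceeded 1 TPM, and in 4 libraries the value did not exceed 0.10 TPM, where few reads may stand behind it. The log2 fold change was −0.58 in the fit without the expression filter (95% interval −1.94 to 0.78, limma adjusted p = 0.895), and it was 0.11 without control 1.

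Leaving out radiotherapy 3 instead moved the differences the other way, to values from −1.29 for C1qc and −1.22 for Lyz2 to 0.03 for Lyve1. Without both high libraries, 2 against 2, the members ranged from −0.44 for C1qc to 0.40 for Cd68. No tested member passed limma in either case. Csf1r, Adgre1, Mrc1 and Ccr2 were not tested in either, nor was Lyve1 without both high libraries.

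The high libraries were compared with the other 2 of their group to set resident against infiltrating markers. Control 1 exceeded the mean of controls 2 and 3 by 40.9-fold for Ccr2, 29.6-fold for Adgre1, 8.18-fold for Lyz2, 6.41-fold for Mrc1 and 2-fold for Lyve1. In radiotherapy 3 the same ratio to radiotherapy 1 and 2 had a narrower range, with 5.52-fold for Lyz2, 5.05-fold for C1qa, 4.12-fold for Ccr2, 3.04-fold for Mrc1 and 2.07-fold for Lyve1. At least 3 times the other controls was reached in control 1 by 9 of the 10 members and 7 of the 8 tested, against 3.08% of tested genes. At least 2 times the other radiotherapy libraries was reached in radiotherapy 3 by all 10, the 8 tested among them, against 10.6% of tested genes. Csf1r and Mrc1 passed the filter partly through these high libraries. Both libraries were set apart because their values were high in these same genes, and the cutoffs of 3 and 2 differ. In radiotherapy 3, Lyve1 (2.07-fold) and Cd68 (2.34-fold) were little above the cutoff of 2. The counts are a description only, and these ratios of single libraries carry no test.

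**Figure D3:**
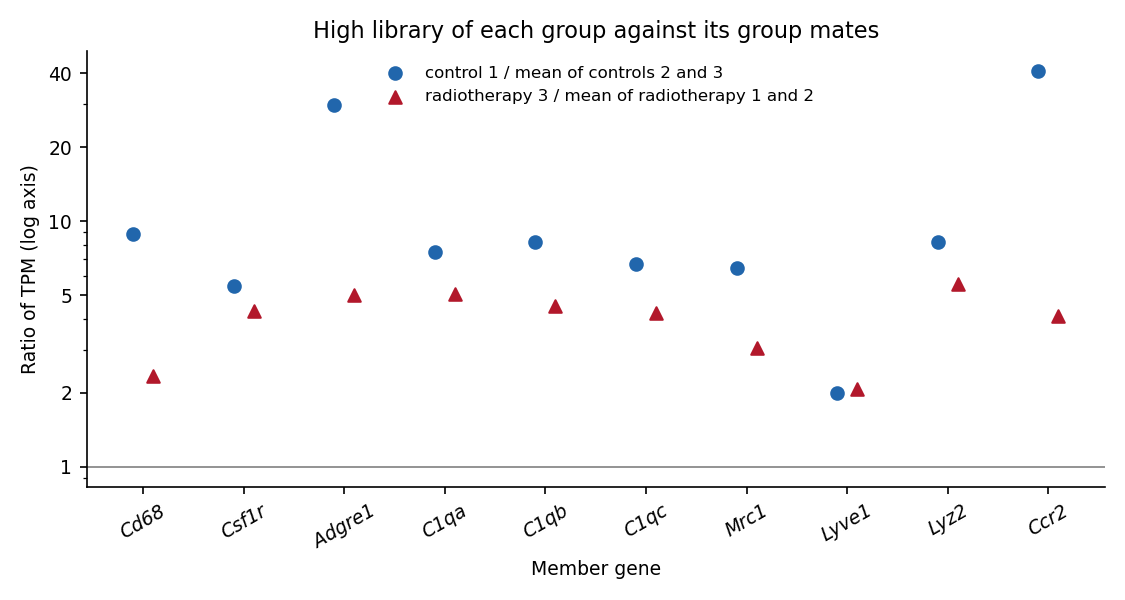
Ratio of TPM (log axis) in control 1 to the mean of controls 2 and 3 (blue circles) and in radiotherapy 3 to the mean of radiotherapy 1 and 2 (red triangles) for the 10 members; the grey line marks equal values. The blue circles run from 2 for Lyve1 to 40.9 for Ccr2, and the red triangles from 2.07 for Lyve1 to 5.52 for Lyz2.

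Set directly against each other, control 1 was 9.94 times radiotherapy 3 in Ccr2 and 4.23 times in Adgre1. It was 1.73 to 2.67 times radiotherapy 3 in Cd68, Csf1r, Mrc1, Lyz2 and the 3 C1q chains, and 0.735 times in Lyve1. The same contrast can be read inside each library, where the scaling of TPM cancels. Ccr2 amounted to 225 TPM per 100 TPM of Lyve1 in control 1, and to between 7.21 and 20.5 in the other 5 libraries. Adgre1 per 100 TPM of Csf1r was 223 in control 1, 27.9 and 49.0 in controls 3 and 2, and 65.3 to 107 in the radiotherapy libraries. The groups overlapped in this ratio. Apart from control 1, all its radiotherapy values were above the controls, but this order rests on low levels. In the 4 libraries besides control 1 and radiotherapy 3, Adgre1 was at 0.17 to 0.60 TPM and Csf1r at 0.49 to 1.00 TPM. How often other pairs of genes separate in this way was not tested.

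The resident minus infiltrating difference, the mean log2(TPM + 1) of Mrc1 and Lyve1 less that of Lyz2 and Ccr2, was −2.78, −1.29 and −1.71 in controls 1, 2 and 3 and −1.19, −1.50 and −1.94 in radiotherapy 1, 2 and 3. Control 1 was lowest and radiotherapy 3 next, and the other 4 libraries of both groups intermingled. The groups were at −1.93 ± 0.769 and −1.54 ± 0.377 (SD, n = 3 each), a difference of 0.38 that was smaller than the spread of the controls, and −0.04 without control 1. Between Lyve1 and Ccr2 alone the difference of levels was −0.81 in control 1 and 0.40 to 1.20 in the other 5 libraries. In those 5 libraries Ccr2 was at 0.07 to 0.35 TPM. Between Mrc1 and Lyz2 the difference was −4.75 in control 1 but lowest, at −5.09, in radiotherapy 3. The group means of the latter were −4.04 in control and −4.09 after radiotherapy.

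**Figure D4:**
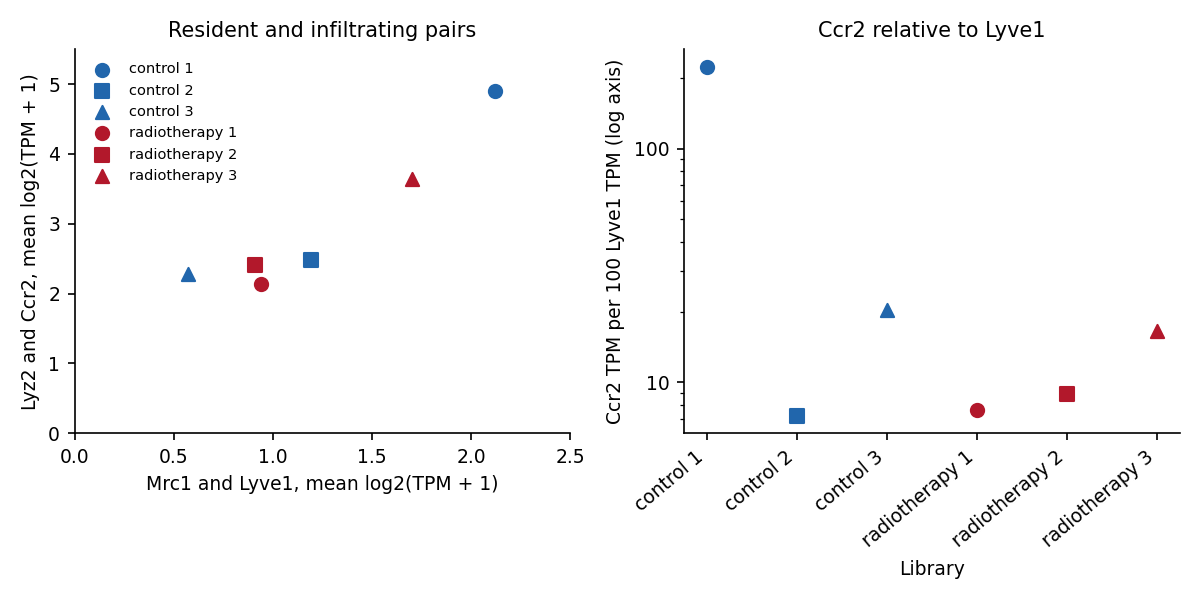
Left, mean log2(TPM + 1) of the infiltrating pair (Lyz2 and Ccr2) against that of the resident pair (Mrc1 and Lyve1), 1 point per library; right, Ccr2 TPM per 100 TPM of Lyve1 (log axis) by library. Blue symbols are control and red symbols radiotherapy, and control 1 lies at the top of both panels, at 4.90 for the infiltrating pair and at 225 for the ratio.

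Longer marker lists from the same cell types were read beside the members. Among 16 further general macrophage genes, none of the 10 tested passed limma and none had an unadjusted p under 0.05, with a median log2 fold change of −0.50, and 0.43 without control 1. Control 1 was highest for 14 of the 16, and control 1 and radiotherapy 3 were the 2 highest for 15. Ctss, a lysosomal protease, was at 68.0 TPM in control 1, 1.15 to 2.81 TPM in the other controls and 8.61 TPM in radiotherapy 3. Tyrobp, a signalling adaptor of myeloid receptors, was at 59.5, 7.59 and 2.91 TPM in the controls and 4.98, 4.25 and 14.7 TPM in the radiotherapy libraries. Cd14, a co-receptor for bacterial lipopolysaccharide, was an exception, with 18.6 TPM in control 1 and 25.9 TPM in radiotherapy 3.

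The 16 genes listed for resident macrophages and the 10 for recruited monocytes differed in how control 1 related to radiotherapy 3. For the resident list the median ratio of control 1 to radiotherapy 3 was 1.06, and for the monocyte list it was 3.73. Folr2, the folate receptor of resident macrophages, was at 11.8 and 5.22 TPM in control 1 and radiotherapy 3, while Cd163, a haemoglobin scavenger receptor, was at 1.57 and 2.38 TPM, Pf4 at 12.2 and 14.0 TPM and Stab1, a scavenger receptor, at 9.18 and 8.40 TPM. Of the monocyte genes, Ms4a4c was at 34.2 TPM in control 1 and 0.98 TPM in radiotherapy 3, Ms4a6c at 25.2 and 5.68 TPM, and Plac8 at 96.5 and 22.2 TPM. Other monocyte genes were closer. Ly6c2, a surface marker of classical monocytes, was at 26.3 and 22.1 TPM. In the other 4 libraries, where Ccr2 did not exceed 0.10 TPM, Ly6c2 was still at 11.2 to 19.3 TPM. What part of Ly6c2 came from monocytes was not tested. Chil3 was at 7.52 and 5.47 TPM in control 1 and radiotherapy 3, and Vcan at 1.98 and 1.42 TPM. Some resident genes were further apart, with Siglec1 at 2.96 and 0.92 TPM, Fcrls at 3.17 and 1.26 TPM and Clec10a at 1.90 and 0.87 TPM. Of the resident list 2 genes stayed under 1 TPM in every library. No test was made of the difference between the lists. Control 1 was highest for all 10 monocyte genes and for 8 of the 16 resident genes. Of the resident list 8 were tested, 6 with positive and 2 with negative log2 fold changes (median 0.11), and of the monocyte list 4 were tested, 1 positive and 3 negative (median −0.16); none passed or had an unadjusted p under 0.05. Without control 1 the medians were 0.52 and 0.63. Gas6 and Cbr2, the most abundant of the resident list at 39.3 to 76.4 and 5.63 to 17.1 TPM, are expressed by other cells as well. Gas6 was higher in control 3 and radiotherapy 1 than in control 1.

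The ligands of CCR2 were highest where Ccr2 was. Ccl2, the main monocyte chemoattractant, was at 20.5, 0.60 and 0.16 TPM in controls 1, 2 and 3 and 1.13, 5.22 and 8.99 TPM in radiotherapy 1, 2 and 3. Ccl7 was at 20.9, 0.17 and 0.08 TPM in the controls and 1.67, 3.02 and 7.52 TPM in the radiotherapy libraries. For both genes each of the 3 radiotherapy libraries lay above controls 2 and 3 and below control 1. Ccl8 and Ccl12 were also highest in control 1, at 18.2 and 17.2 TPM, and second in radiotherapy 3, at 13.4 and 7.81 TPM. The 4 ligands had positive log2 fold changes (median 0.42), up to 0.58 for Ccl2 (SE 1.01, limma adjusted p = 0.980), and none passed. Without control 1 the median was 1.66, with 1.90 for Ccl2.

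In the axis of macrophage growth factors and their transcription factors, Csf1 was at 6.83, 3.24 and 2.32 TPM in the controls and 4.23, 3.65 and 6.95 TPM in the radiotherapy libraries, and Il34 at 2.76 to 4.29 and 2.61 to 4.91 TPM. The values of both ligands spanned a far narrower range than their receptor Csf1r. Of the 8 tested of 9 genes in this list none passed limma and 1, Maf, had an unadjusted p under 0.05 (0.0324, lower, where 2.86% of tested genes were lower at that level). Maf, a transcription factor of resident macrophages that other cells of muscle also express, was at 21.2, 38.8 and 18.4 TPM in the controls and 19.9, 8.41 and 11.2 TPM in the radiotherapy libraries (log2 fold change −0.95, limma adjusted p = 0.977; −1.05 without control 1). The library with the highest Maf level was control 2, not control 1 as for Csf1r. The median of this list was −0.19, and 0.20 without control 1.

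Among the other genes of the classical complement pathway, values were less concentrated in control 1 than for C1q. The median ratio of control 1 to the other controls was 3.23 over 8 genes, compared with 6.69 to 8.18 for the C1q chains. C1s1, the gene of the protease C1s, was at 13.6, 7.54 and 3.71 TPM in the controls and 6.62, 5.76 and 12.8 TPM in the radiotherapy libraries. Serping1, the C1 inhibitor, was at 64.7, 27.0 and 22.3 TPM and 31.2, 24.0 and 45.6 TPM. C4b was highest in radiotherapy 1, at 31.3 TPM, and C3 in radiotherapy 3, at 34.0 TPM. Of 7 tested genes 4 had positive and 3 negative log2 fold changes (median 0.09), the highest being 0.91 for C4b (SE 0.53, limma adjusted p = 0.977). Without control 1 the median was 0.49, and C4b was at 1.38. Among proteins that bind C1q, C1qbp, a mainly mitochondrial protein, ranged only from 89.0 to 121 TPM over the 6 libraries, and Calr, calreticulin, was at 160 TPM in control 1, 162 TPM in radiotherapy 3 and 78.9 to 95.8 TPM elsewhere; 0 of the 5 tested passed.

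**Figure D5:**
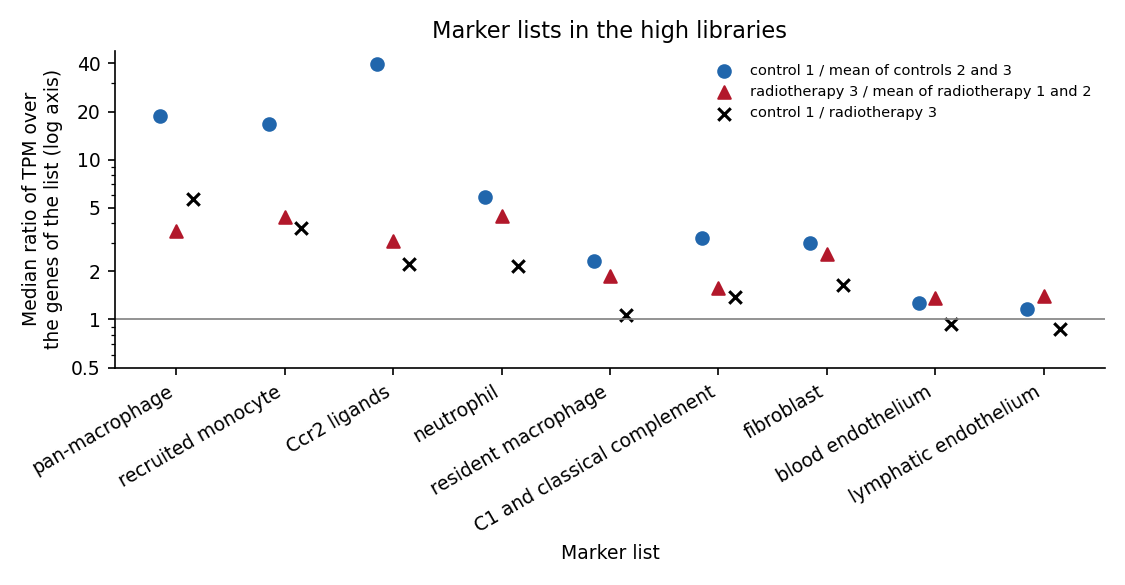
Median over the genes of each marker list of the TPM ratio (log axis) of control 1 to the mean of controls 2 and 3 (blue circles), radiotherapy 3 to the mean of radiotherapy 1 and 2 (red triangles), and control 1 to radiotherapy 3 (crosses). For the last ratio the crosses are at 5.64 for general macrophage genes and 3.73 for monocyte genes, and at 1.06 for resident macrophage genes and 0.94 for blood endothelium.

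Markers of other cell types moved with control 1 and radiotherapy 3 to different extents. The 12 neutrophil markers summed to 279 to 1649 TPM in control and 153 to 687 TPM after radiotherapy. Control 1 was highest for 11 of them, and control 1 and radiotherapy 3 were the 2 highest for 9. S100a9, a subunit of calprotectin, was at 859, 151 and 143 TPM in the controls and 84.6, 78.8 and 340 TPM in the radiotherapy libraries. The ratio of S100a9 to Lyz2 was 4.33 to 6.92 in the controls and 2.97 to 4.98 in the radiotherapy libraries, which overlapped. The neutrophil part of Lyz2 was not tested.

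Fibroblast markers were highest in control 1 for 6 of 7 genes, summing to 90.8 to 215 TPM in control and 93.5 to 154 TPM after radiotherapy. Blood endothelium was nearly even, with 67.4 to 90.9 and 67.3 to 99.4 TPM summed over 5 genes, and Pecam1 between 34.5 and 51.2 TPM. Adipocyte markers were highest in radiotherapy 1, where the members were low, with a sum of 143 TPM and 88.7 TPM for Adipoq. Dendritic cell markers summed to 1.04 to 2.54 TPM in control and 1.17 to 2.96 TPM after radiotherapy, and 5 of the 6 stayed under 1 TPM, with Zbtb46 the exception. Red blood cell genes, the 4 adult globins and Alas2, were highest in control 2 (7203 TPM summed) and not in control 1 (4178 TPM). Their sums did not overlap between groups, at 3352 to 7203 TPM in control and 930 to 1618 TPM after radiotherapy. Among tested genes taken singly, 9.24% had groups that did not overlap. All 5 red blood cell genes were lower at an unadjusted limma p under 0.05, against 2.86% of tested genes. Their median log2 fold change was −1.81, and −1.90 without control 1. None passed limma after adjustment (lowest adjusted p = 0.648). Their part, and that of fibroblasts, in the level of the members was not tested.

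Outside the 10 members, 6 named genes had the profile over the 6 libraries nearest to the mean of the C1q chains, measured as the root mean square difference of centred log2(TPM + 1). The nearest was Ifitm6, an interferon-induced transmembrane gene, at 0.108, with 23.2, 3.41 and 2.58 TPM in the controls and 2.16, 2.03 and 10.1 TPM in the radiotherapy libraries. Spi1 followed at 0.186, Wfdc17 at 0.195, the chemokine gene Ccl9 at 0.212, Folr2 at 0.215 and Alox5ap, needed for leukotriene synthesis, at 0.226. For scale, the chains themselves were at 0.0670 to 0.127 from their mean, Lyz2 was at 0.244, Cd68 at 0.434, Mrc1 at 0.435, Csf1r at 0.478 and Lyve1 at 0.927, and the median over all tested genes was 1.11. These profiles rest on the same 2 high libraries.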

How the data were processed

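Total RNA of 6 gastrocnemius samples was sequenced from TruSeq libraries (labels' protocols). A single table deposited by the authors gives TPM for 57010 genes; HISAT2, StringTie, RSEM and build mm9 are named in the submitters' processing notes, while versions, annotation and strandedness are not given in the sources. Groups came from the treatment label. Promoter sequences came from RefSeq on GRCm38.p6, another build than that of the values; only these windows carry coordinates. Values were transformed to log2(TPM + 1); this pseudocount understates changes of low genes. Genes that reached 1 TPM in 3 or more samples, 11375 in all, entered limma 3.58.1 in R 4.3.3 (mean-variance trend, two-sided, group only), with Benjamini-Hochberg adjustment over all of them and a threshold of 0.05. The procedure was tested on simulated data. The members, lists and tests were chosen with earlier results of these data known. Named genes were all members, up to 4 most abundant genes per list, and the 6 profiles nearest to C1q. Others (such as Cd163, Siglec1, Fcrls, Clec10a, Il34, Prox1, Chil3, Vcan and Lyz1) were chosen after their values were seen. Equal nonzero values made up at most 3.35% in any pair of libraries.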

Additional observations from a re-analysis of the deposited data

How the results depend on the processing

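No tested member passed under any of the 17 alternatives, but not every member was tested in each. With the filter of 5 TPM only the C1q chains and Lyz2 were tested. Without control 1, without control 2 or without radiotherapy 3, Csf1r, Adgre1, Mrc1 and Ccr2 were not tested. No tested gene passed except without control 1, where 6 passed (limma, range 0 to 6 over single libraries left out). Unadjusted, 110 higher and 325 lower genes had a p under 0.05; this balance turned to 321 and 272 with median-of-ratios scaling, 312 and 283 with quantile normalization, and 256 and 179 without the 50 most abundant and mitochondrial genes. Signs of the members depended on single libraries: without control 1 all but Lyve1 changed sign, and without radiotherapy 1 or 2 Cd68 did (0.04 and 0.01), as did Lyz2 without radiotherapy 1 (0.12). With single libraries left out, the mean of the C1q chains ranged from −1.19 to 0.35, the resident minus infiltrating difference from −0.04 to 0.70, Cd68 from −0.61 to 0.73, Csf1r from −0.76 to 0.13, C1qa from −1.17 to 0.45, C1qb from −1.12 to 0.46, C1qc from −1.29 to 0.15, Mrc1 from −0.95 to 0.19, Lyve1 from 0.01 to 0.42 and Lyz2 from −1.22 to 0.59; each highest value of a gene or of the C1q mean, and the lowest of the difference, was reached without control 1. Without control 1 and radiotherapy 2 together, values turned positive: 0.88 for Cd68, 0.30 for Csf1r, 0.81 for C1qa, 0.80 for C1qb, 0.37 for C1qc, 0.39 for Mrc1 and 0.87 for Lyz2. Without control 1 and radiotherapy 3 together, a choice made after seeing the data, Cd68 was 0.40 and the resident minus infiltrating difference 0.15, but Csf1r was −0.24, C1qa −0.26, C1qb −0.18, C1qc −0.44, Mrc1 −0.12 and Lyz2 −0.22. Other pseudocounts, filters, scalings and limma settings left every sign as it was, though a pseudocount of 0.1 moved the difference from 0.38 to 0.65, Csf1r from −0.40 to −0.64, Lyve1 from 0.24 to 0.45 and Ccr2 from −0.58 to −1. Cd68 went to −0.01 without the 50 most abundant and mitochondrial genes and −0.04 with median-of-ratios scaling, and the difference to 0.24 with quantile normalization. Deviations of same-numbered samples from their group means had r of −0.06, 0.02 and −0.11 across genes, and differently numbered pairs −0.13 to 0.17. With 3 samples per group these values cannot decide whether samples were paired, and the labels state no pairing. With the replicate number as a block, 0 genes passed limma, as without. Depth is unknown, which limits statements on Ccr2 and other genes under 1 TPM.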
